A study of Mus musculus with 96 samples.

Results

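The genes of sterol and fatty acid synthesis were followed in mouse primary bone marrow dendritic cells (BMDCs) exposed to ligands of Toll-like receptors (TLRs). The list held 37 genes, chosen by name for their place in the pathway: the enzymes of the mevalonate route, the enzymes that carry squalene to cholesterol, the SREBP sterol-sensing machinery, proteins that move sterols, and the enzymes of fatty acid synthesis, elongation and desaturation. Of these, 29 had a probe set that named them alone and rose above the floor of the measurement on at least 1 array, out of 7741 such named genes in the series. For 7 of the other genes (Hmgcs1, Pmvk, Acat2, Insig1, Srebf1, Abca1 and Scd2) no probe set naming a single gene was used here, and Acaca lay at the floor on every array.

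Cells received Lps, Pic, Pam, Cpg or Grd and were sampled at 9 times between 0.5 and 24 h on 2 arrays a time, except that Cpg was down to a single array at 16 and at 24 h. The ligands thus gave 18, 18, 18, 16 and 18 arrays. Unstimulated cells, called Control in the labels, gave 8 arrays, 1 each at 0, 1, 2, 4, 6, 8, 12 and 24 h, and none at 16 h. The labels use these short names. From knowledge of the study, Lps is lipopolysaccharide, sensed by TLR4, and Pic is poly(I:C), which mimics double-stranded RNA and is sensed by TLR3. Pam is a lipopeptide sensed by TLR2, Cpg is CpG DNA sensed by TLR9, and Grd is gardiquimod, sensed by TLR7. Strain, sex, age, doses and the culture history of the cells are not given in the sources used here, and nothing says that the 2 arrays of a time are separate cultures, so the p-values cover array-to-array spread that may be technical.

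The values are intensities on a linear scale with a floor of 20, and the number of arrays limits their precision. Array medians ranged from 48.75 to 59.5, between 33.1% and 34.6% of probe sets lay at the floor on each array, and the replicate arrays of a ligand at a time had correlations of 0.9852 to 0.9982 over probe sets. All 96 arrays lay on 1 plate, where Lps, Pic, Pam and Grd took separate rows, their times separate columns, and Cpg and Control the remaining columns, so place on the plate cannot be told apart from ligand or time. All 10 dendritic cell markers fixed for the check were measured, with Control medians of 3702 for Itgax and 5034 for H2-Aa, while the dendritic markers Flt3 and Zbtb46 were near the floor at 28.1 and 42.3.

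As background, cholesterol is built from acetyl-CoA through mevalonate, isoprenoids, squalene and lanosterol, and fatty acids are built from the same acetyl-CoA by acetyl-CoA carboxylase and fatty acid synthase. The SREBP transcription factors switch on both sets of enzymes: Scap escorts them out of the endoplasmic reticulum when membrane sterol is low, and Insig proteins hold them back when it is high. Oxysterols also activate the LXR receptors, which raise genes for sterol export. In dendritic cells and macrophages both routes are known to be rewired after TLR stimulation.

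Upstream sequence was read for the members whose RefSeq promoter was in the table used (assembly GRCm38.p6), which covered 21 of the 29. The search took the 250 bases before each listed start and looked on both strands for CCAAT, the box bound by NF-Y, a factor known to act beside SREBP, and for CACGTG, an E-box. CCAAT or its complement ATTGG stood in 17 of the 21 members (81%), against 40.4% of 6338 genes measured on the arrays. CACGTG stood in 5 members (23.8%), against 10.5% of those genes. The string TCACNCCAC, taken for the sterol element, was found in 0 of 21 members, against 1.18% of those genes. A string taken for the direct-repeat LXR element was found in 0 members and 0 of those genes. Only exact matches were counted, with N as any base. Elements spelled otherwise would be missed, so these counts do not show that the elements are absent. GGGCGG, the GC box bound by Sp1, stood in 18 members (85.7%), against 64.4% of those genes. Capitals in the sequences below mark the CCAAT boxes and E-boxes found on either strand. Each sequence runs 5′ to 3′ towards the start site, and in Fasn a CCAAT box overlaps another on the opposite strand. Cyp51, Msmo1, Hsd17b7 and Fasn are shown because the intensities described below turn on them. Npc2 is shown because it was never called against Control by the rule given below and still has CCAAT matches.
Cyp51, chr5:4104698-4104947, minus strand: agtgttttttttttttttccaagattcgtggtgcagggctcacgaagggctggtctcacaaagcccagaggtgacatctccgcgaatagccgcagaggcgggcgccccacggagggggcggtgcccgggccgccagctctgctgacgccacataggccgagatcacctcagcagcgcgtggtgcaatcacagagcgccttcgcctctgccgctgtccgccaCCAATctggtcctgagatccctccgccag
Msmo1, chr8:64733579-64733828, minus strand: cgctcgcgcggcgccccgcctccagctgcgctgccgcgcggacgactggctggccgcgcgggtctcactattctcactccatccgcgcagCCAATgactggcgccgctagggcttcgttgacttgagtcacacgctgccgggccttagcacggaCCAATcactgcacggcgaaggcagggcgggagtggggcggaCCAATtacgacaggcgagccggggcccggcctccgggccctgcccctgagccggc
Hsd17b7, chr1:169969206-169969455, minus strand: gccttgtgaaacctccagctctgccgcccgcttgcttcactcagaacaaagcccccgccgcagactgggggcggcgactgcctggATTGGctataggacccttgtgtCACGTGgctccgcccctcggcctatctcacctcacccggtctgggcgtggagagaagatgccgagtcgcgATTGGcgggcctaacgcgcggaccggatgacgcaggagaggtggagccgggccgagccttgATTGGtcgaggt
Fasn, chr11:120824548-120824797, minus strand: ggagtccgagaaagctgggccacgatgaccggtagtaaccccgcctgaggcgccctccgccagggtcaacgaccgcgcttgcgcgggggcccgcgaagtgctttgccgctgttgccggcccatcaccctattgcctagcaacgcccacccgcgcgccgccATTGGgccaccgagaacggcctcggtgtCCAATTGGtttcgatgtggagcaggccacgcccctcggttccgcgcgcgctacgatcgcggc
Npc2, chr12:84773113-84773362, minus strand: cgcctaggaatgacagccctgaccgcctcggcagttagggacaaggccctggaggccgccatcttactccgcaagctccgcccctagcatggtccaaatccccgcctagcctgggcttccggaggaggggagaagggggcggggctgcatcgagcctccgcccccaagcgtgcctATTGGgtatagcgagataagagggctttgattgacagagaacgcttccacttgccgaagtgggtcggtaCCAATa
A match in these letters is a description of the window and not evidence of binding. CCAAT matches were found in members called lower by the rule given below and in members never called, such as Mvk, Ebp, Tm7sf2 and Npc2. Though not called, Mvk, Ebp and Tm7sf2 lay below all Control arrays in Lps and Pic at 12-24 h. No CCAAT match was found in Elovl6 or Acly, which were called lower. Of the 8 members with no promoter entry, Fdps, Fdft1, Sqle, Stard4, Scd1 and Fads1 are described below by their intensities alone.

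The first comparison asked how the 29 members stood in each ligand window against the 8 Control arrays. Times were grouped into 0.5-2 h (0.5, 1 and 2 h), 4-8 h (4, 6 and 8 h) and 12-24 h (12, 16 and 24 h). A gene was called when limma's Benjamini-Hochberg adjusted p, over all 10543 genes tested, was under 0.05 and the difference in log2(value + 1) was at least 1. For dim genes the added 1 and the floor make a difference look smaller. Over the 15 ligand windows, 19 members were called at least once and 10 never. There were 81 calls lower and 1 call higher among 435 combinations of member and window. Of all genes tested, 0.171% to 8.22% were called lower and 0.617% to 7.05% higher, depending on the window.

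No member was called at 0.5-2 h in any of the 5 ligands by limma. Under an unadjusted p of 0.05, 23 members passed for Lps, 22 for Pic, 20 for Pam, 20 for Cpg and 16 for Grd, but 56.6%, 51.1%, 58.3%, 52.4% and 45.4% of all genes tested did so too, so the size limit carries the call. The largest early difference of a member was 0.85 in size, for Fads1 after Lps. The members' median log2 difference was -0.33 in Lps, -0.26 in Pic, -0.19 in Pam, -0.18 in Cpg and -0.15 in Grd. The all-gene medians were -0.03, -0.01, -0.04, -0.04 and -0.01 in the same order. Of the 29 members, 27, 23, 25, 26 and 24 lay below 0. Across all genes, 2.12% were called in either direction in Lps, 0.863% in Pic, 2.39% in Pam, 2.14% in Cpg and 1.12% in Grd at these times.

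At 4-8 h, 12 members were lower in Lps, where 8.22% of all genes were called lower. Pic had 8 lower members (background 2.79%), Cpg 7 (5.53%) and Grd 5 (3.92%). Pam had 4 lower members (4.00%) and 1 higher, Hsd17b7 (3.48% of all genes were called higher). The median log2 difference of the members was -0.65 in Lps, -0.71 in Pic, -0.10 in Pam, -0.56 in Cpg and -0.39 in Grd. The median of all genes was -0.11, -0.10, -0.03, -0.08 and -0.06 in the same order. Centring each array on its own median gave 0.07 for the all-gene median of Lps in place of -0.11, and with that scaling 10 members were lower in Lps and their median was -0.48.

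At 12-24 h the ligands separated further. Pic had 17 lower members (background 4.00%) and Lps 15 (4.42%), Cpg had 7 (3.23%) and Grd 5 (2.88%), and Pam had 1, Elovl5 (2.97%). The members' median was -1.24 in Pic, -1.18 in Lps, -0.73 in Cpg, -0.62 in Grd and -0.29 in Pam, while the all-gene medians lay between -0.03 and -0.01. All 5 comparisons share the Control arrays. The counts for Cpg and Grd depended on the arrays used. With ligand and Control arrays of 12 and 24 h alone, they were 13 for Cpg and 11 for Grd. With the 16 h ligand arrays left out and all 8 Control arrays kept, they were 11 and 8.

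**Figure D1:**
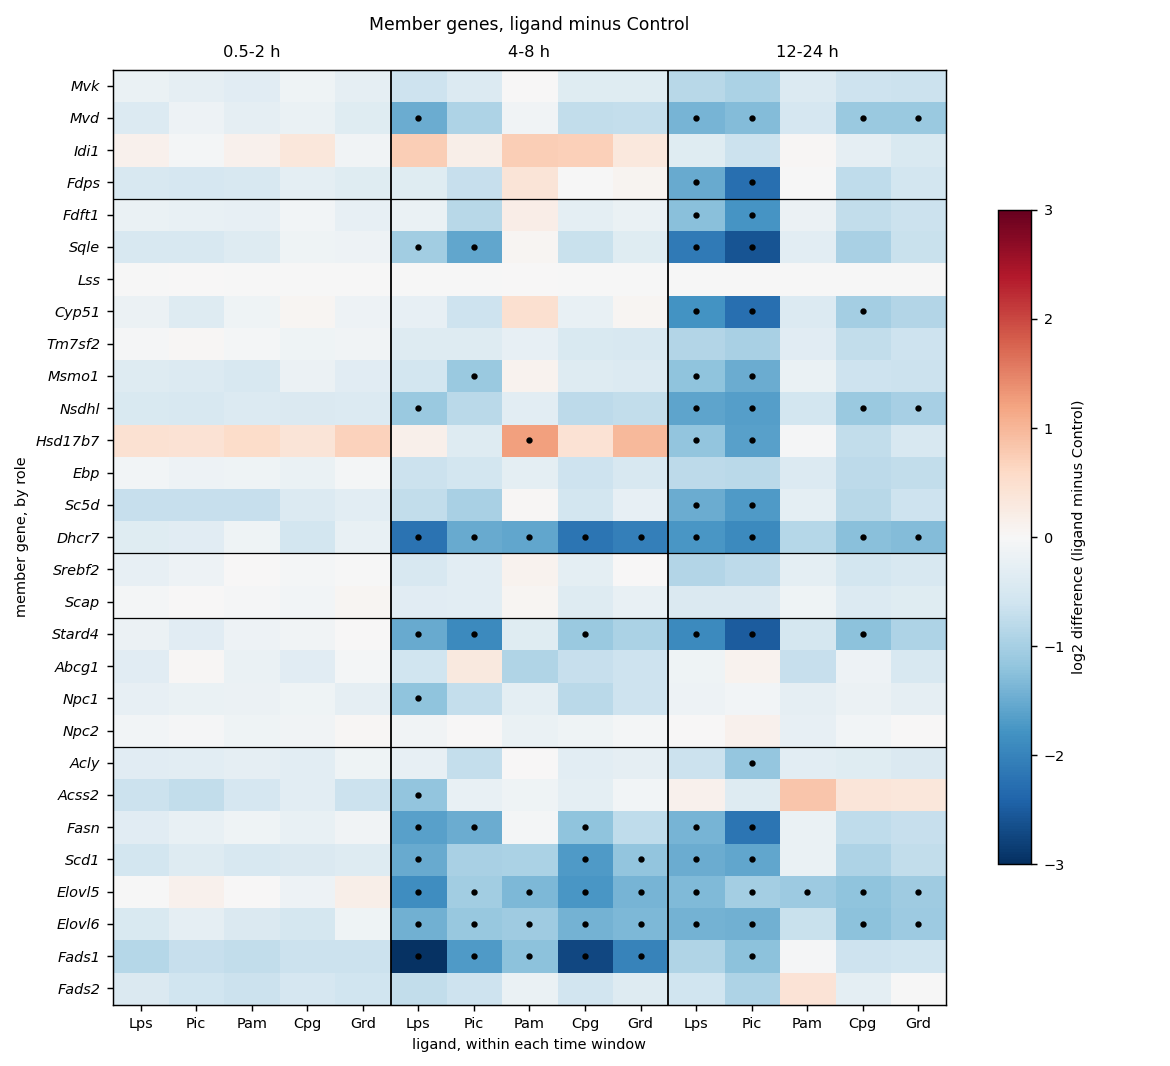
Log2 differences of the 29 measured members (rows, grouped by role) against the 8 Control arrays in the 15 ligand windows (columns), with dots on called differences. Lower values fill the Lps and Pic columns at 12-24 h, where 15 and 17 members were called, and Elovl5 holds the single dot of the Pam column at 12-24 h.

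In the mevalonate segment, 2 of 4 measured members were lower at 12-24 h in Lps and in Pic, with medians of -1.11 and -1.12. Fdps, the farnesyl diphosphate synthase that joins isoprenoid units, ranged from 99.7 to 178.5 in Lps (median 155.9) and from 62.8 to 132.6 in Pic (median 75.7) at 12-24 h, against 312.1 to 573.0 in Control (median 407.9). Neither ligand overlapped Control. The log2 difference was -1.52 in Lps (SE 0.09, adjusted p = 2e-21) and -2.26 in Pic (SE 0.09, adjusted p = 9.4e-29). Pam at the same times ranged from 327.1 to 543.2, inside the Control range, with a difference of -0.02 (SE 0.09, adjusted p = 0.96).

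Mvd, the mevalonate diphosphate decarboxylase, was lower already at 4-8 h in Lps, at 72.0 to 91.7 (median 78.5) against 193.1 to 292.3 in Control (median 223.8), a difference of -1.49 (SE 0.08, adjusted p = 6.9e-24). At 12-24 h it was lower in Lps (-1.40), Pic (-1.30), Cpg (-1.11) and Grd (-1.12), with every array of these 4 ligands below every Control array. Idi1, the isopentenyl diphosphate isomerase, was not lower at first: at 4-8 h all 6 Lps arrays, at 1803.0 to 2409.2, lay above the Control range of 1108.0 to 1618.2. Its difference of 0.73 (SE 0.05) in Lps stayed under the size limit, as did 0.73 in Pam and 0.71 in Cpg. Mvk, mevalonate kinase, was dim, with a highest intensity of 50.6, and was called in no window.

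The segment from squalene to cholesterol held the largest late differences. Of its 11 measured members, 8 were lower in Lps and 8 in Pic at 12-24 h, 3 in Cpg and 2 in Grd, with medians of -1.25, -1.65, -0.78 and -0.65. Sqle, squalene epoxidase, which makes the first oxygenated sterol precursor, ranged from 79.0 to 104.6 in Lps (median 87.2) and from 57.3 to 72.8 in Pic (median 64.2), against 266.5 to 484.9 in Control (median 413.4). No Lps or Pic array of 12-24 h came near the Control range. The difference was -2.11 in Lps (SE 0.08, adjusted p = 1e-29) and -2.58 in Pic (SE 0.08, adjusted p = 1.5e-33). In Cpg it was -0.98 and in Grd -0.66, short of the size limit, and in Pam all 6 arrays lay within the Control range, at 276.5 to 376.2.

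By time, Sqle in Pic held 254.4 and 249.2 at 4 h, 110.9 and 124.7 at 6 h, 71.8 and 81.6 at 8 h, and stayed between 57.3 and 72.8 from 12 h on. In Lps it was slower, at 210.3 and 220.9 at 6 h, 138.1 and 149.6 at 8 h, and 89.6 and 82.9 at 12 h. In Pam it was 594.5 and 627.3 at 4 h, above every Control array, and 252.6 and 252.7 at 8 h, below every Control array. Grd moved within the later times: 228.2 and 218.0 at 12 h, 359.9 and 328.2 at 16 h, and 203.1 and 188.6 at 24 h.

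Cyp51, the lanosterol demethylase whose upstream sequence is given above, ranged from 93.0 to 146.7 in Lps (median 116.3) and from 67.2 to 115.6 in Pic (median 84.5) at 12-24 h, against 320.1 to 485.6 in Control (median 446.8). All 12 of these ligand arrays were below all Control arrays. The difference was -1.79 in Lps (SE 0.08, adjusted p = 3.7e-26) and -2.27 in Pic (SE 0.08, adjusted p = 1.3e-30). At 4-8 h it was -0.24 in Lps and -0.62 in Pic, and between 4-8 h and 12-24 h it fell by 1.56 in Lps and 1.65 in Pic, both called. The late Cpg value of -1.01 was only just past the size limit.

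Fdft1, which forms squalene, Msmo1 and Nsdhl, which remove methyl groups from the sterol ring, and Sc5d, a sterol desaturase, were also called lower in both Lps and Pic at 12-24 h. Fdft1 had -1.25 in Lps and -1.76 in Pic. Sc5d had -1.49 and -1.69, Nsdhl -1.58 and -1.65, and Msmo1 -1.20 and -1.49 in the same order. Nsdhl was also lower in Cpg (-1.12) and, at the size limit, in Grd. Ebp and Tm7sf2 stayed under the limit in every window, with late values in Pic of -0.81 and -0.97. Lss, lanosterol synthase, was at the floor on 92 of 96 arrays with a highest value of 22.7 and could not be measured.

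Dhcr7, which carries out the last reduction to cholesterol, fell in every ligand at 4-8 h, at 28.3 to 61.3 in Lps, 49.0 to 112.2 in Pic, 47.8 to 83.4 in Pam, 30.4 to 60.7 in Cpg and 36.7 to 67.8 in Grd, against 144.3 to 235.2 in Control. No ligand array overlapped Control. The differences were -2.22 in Lps, -1.52 in Pic, -1.57 in Pam, -2.19 in Cpg and -2.04 in Grd, each with an SE of 0.11. Between 0.5-2 h and 4-8 h Dhcr7 fell by 1.84 in Lps, 1.18 in Pic, 1.45 in Pam, 1.65 in Cpg and 1.81 in Grd on the log2 scale, all called.

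Hsd17b7, a ketosteroid reductase of the same segment, was the member called higher. At 4-8 h Pam arrays held 143.7 to 426.3 (median 281.5) against 62.3 to 161.6 in Control (median 123.7), a difference of 1.23 (SE 0.11, adjusted p = 4.6e-14), and 5 of the 6 Pam arrays were above all Control arrays. Grd at 4-8 h came close to the limit with 0.98 (SE 0.11). At 12-24 h it was lower in Lps (-1.18) and Pic (-1.64). The Control arrays themselves read 124.0 at 0 h, 74.2 at 12 h and 62.3 at 24 h. With ligand and Control arrays of 12 and 24 h alone, the late differences were -0.45 in Lps and -0.91 in Pic, both under the limit.

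**Figure D2:**
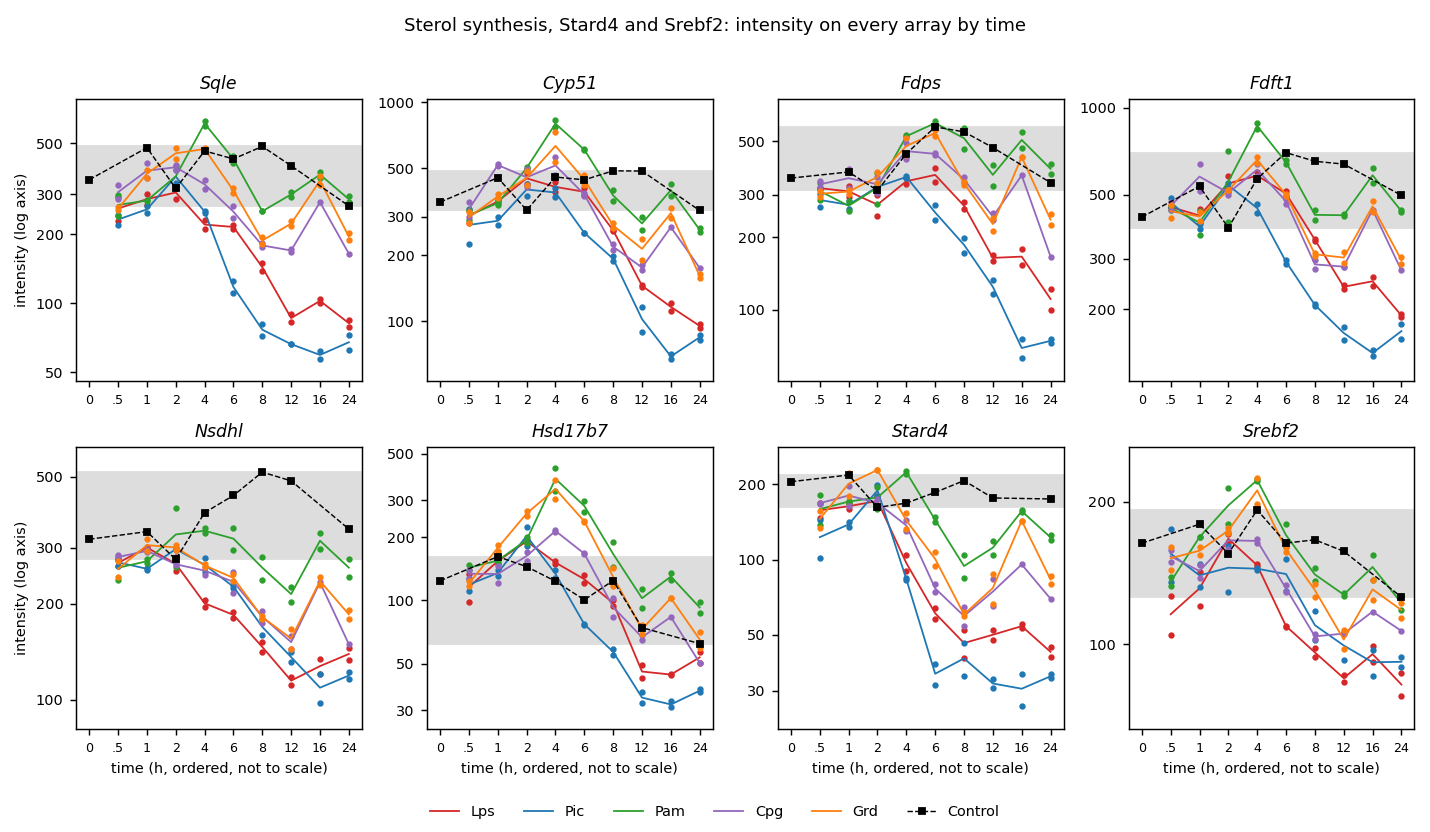
Intensity (log axis) of 8 sterol genes by time (h, ordered, not to scale): points are arrays, coloured lines the means of each ligand, black squares the Control arrays and the grey band their range. Sqle in Lps and Pic sits at 57.3 to 104.6 from 12 h on, below the band, and Pam lies above the band at 4 h.

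Sterol sensing was represented by Srebf2, which encodes SREBP2, the factor that drives sterol enzymes, and by Scap, its escort. Neither was called in any window with the probe set used. Srebf2 at 12-24 h ranged from 77.6 to 99.1 in Lps (median 86.4) and from 85.8 to 106.2 in Pic (median 93.3), against 125.8 to 192.2 in Control (median 163.6). The ranges did not overlap, and the differences were -0.89 (SE 0.06, adjusted p = 1.8e-18) and -0.78 (SE 0.06, adjusted p = 2.5e-16). A second, dimmer Srebf2 probe set gave -0.91 in Lps and -1.03 in Pic, and the Pic value was called. Scap had -0.44 in both ligands.

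Among sterol transport genes, Stard4, a carrier of cholesterol between membranes, was lower in 3 ligands at 12-24 h. At 12-24 h it ranged from 40.9 to 55.2 in Lps (median 50.1) and from 26.1 to 34.9 in Pic (median 33.5), against 161.4 to 217.5 in Control (median 180.8). No array overlapped. Differences were -1.91 in Lps (SE 0.08, adjusted p = 2.9e-27), -2.50 in Pic (SE 0.08, adjusted p = 2.3e-32) and -1.22 in Cpg (SE 0.10, adjusted p = 3.9e-16). A second probe set of Stard4 gave -1.39, -2.40 and -0.86 for the same ligands, so its Cpg value missed the limit.

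Npc1, which lets cholesterol leave lysosomes, was called lower in Lps alone, at 4-8 h. Its arrays lay below all Control arrays at 4, 6 and 8 h in all 5 ligands. It ranged from 101.1 to 135.7 at 4-8 h and from 188.3 to 272.7 at 12-24 h in Lps, against 228.6 to 335.3 in Control. The difference was -1.20 (SE 0.06, adjusted p = 1.8e-23) at 4-8 h and -0.16 at 12-24 h, and the later window was higher than the middle one by 1.05 (SE 0.07, adjusted p = 3e-19). Npc2, its lumenal partner, was called in no window.

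Abcg1, an exporter of cholesterol and a known LXR target, was called in no window against Control but differed between ligands. At 4-8 h it ranged from 1994.1 to 2713.3 in Pic (median 2452), from 969.1 to 1108.4 in Pam (median 1024) and from 1571.9 to 2310.6 in Control (median 2037). Pam lay below all Control arrays and Pic overlapped their upper end. The difference of Pic against Pam was 1.20 (SE 0.07, adjusted p = 5.8e-21), in a pair for which 5.28% of all genes were called higher.

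In the fatty acid segment, at 4-8 h, 6 of 8 measured members were lower in Lps, 4 in Pic, 3 in Pam, 5 in Cpg and 4 in Grd, with medians of -1.48, -1.01, -0.57, -1.32 and -0.98. Fads1, the delta-5 desaturase that makes arachidonate, had the largest difference of any member, at 28.5 to 55.3 in Lps (median 36.0) and 35.3 to 65.7 in Cpg (median 40.2), against 232.8 to 450.3 in Control (median 293.2). Its arrays in all 5 ligands were below Control at these times. The differences were -2.97 in Lps, -1.71 in Pic, -1.22 in Pam, -2.74 in Cpg and -2.01 in Grd, each with an SE of 0.12 and adjusted p from 2.4e-29 in Lps to 2e-13 in Pam.

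Fads1 was higher again in the later window. In Lps it held 34.0 and 29.6 at 8 h, 79.1 and 94.6 at 12 h, and 232.2 and 234.8 at 16 h. Between 4-8 h and 12-24 h it rose by 2.05 in Lps (SE 0.12), 2.12 in Cpg (SE 0.14), 1.42 in Grd (SE 0.12) and 1.19 in Pam (SE 0.12), all called. In Pic the late difference from Control was still -1.24 (SE 0.12, adjusted p = 9.4e-14). Fads1 in Control read 450.3 at 24 h and 239.5 at 0 h, and that slope of 0.98 missed the size limit.

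Elovl5, an elongase of polyunsaturated fatty acids, was lower in all 5 ligands in both later windows. At 4-8 h it ranged from 189.5 to 387.5 in Lps, 339.1 to 607.2 in Pic, 306.0 to 434.3 in Pam, 203.6 to 393.0 in Cpg and 280.5 to 457.2 in Grd, against 750.6 to 1096.4 in Control. No ligand array overlapped Control. The differences at 4-8 h ran from -1.86 in Lps to -1.05 in Pic, each with an SE of 0.06. At 12-24 h they lay between -1.32 in Lps and -1.01 in Pic, so several were close to the limit.

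Fasn, fatty acid synthase, was lower in Lps and Pic at both later windows. At 12-24 h it ranged from 64.9 to 103.3 in Lps (median 80.2) and from 36.9 to 58.7 in Pic (median 44.9), against 176.3 to 261.2 in Control (median 213.9). Neither overlapped Control, whereas Pam did, at 140.6 to 262.7. The difference was -1.39 in Lps (SE 0.10, adjusted p = 1.4e-17) and -2.18 in Pic (SE 0.10, adjusted p = 1.7e-25). At 4-8 h it was already -1.63 in Lps, -1.50 in Pic and -1.21 in Cpg.

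Scd1, the stearoyl-CoA desaturase, was lower at 4-8 h in Lps (-1.52), Cpg (-1.69) and Grd (-1.19), and at 12-24 h in Lps (-1.49) and Pic (-1.56). Elovl6, an elongase of saturated fatty acids, was called in 9 of 10 later windows, but its ligand arrays reached the floor of 20, so its differences understate the change. For Cpg at 4-8 h, the Scd1 call was lost (-0.89) when the mean of its probe sets replaced the brighter one, and so was the Elovl6 call for Pic at 12-24 h (-0.83). The dimmer probe sets averaged 20.43 for Scd1 and 21.01 for Elovl6, close to the floor, so taking the mean shrinks the differences. Acly, which makes cytosolic acetyl-CoA from citrate, was lower in Pic at 12-24 h, at 579.3 to 678.1 against 1155.6 to 1627.8 in Control, a difference of -1.15 (SE 0.06, adjusted p = 9.6e-24).

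Acss2, which makes acetyl-CoA from acetate, was called in Lps and in no other ligand against Control. In Lps it ranged from 101.1 to 156.5 at 4-8 h and from 249.8 to 359.0 at 12-24 h, against 171.0 to 462.2 in Control. It was lower at 4-8 h (-1.19, SE 0.12, adjusted p = 7.5e-13) and then rose by 1.31 (SE 0.13, adjusted p = 5.9e-13). Pam reached 391.7 to 600.3 at 12-24 h, and 4 of its 6 arrays were above all Control arrays, but its difference of 0.83 stayed under the limit.

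**Figure D3:**
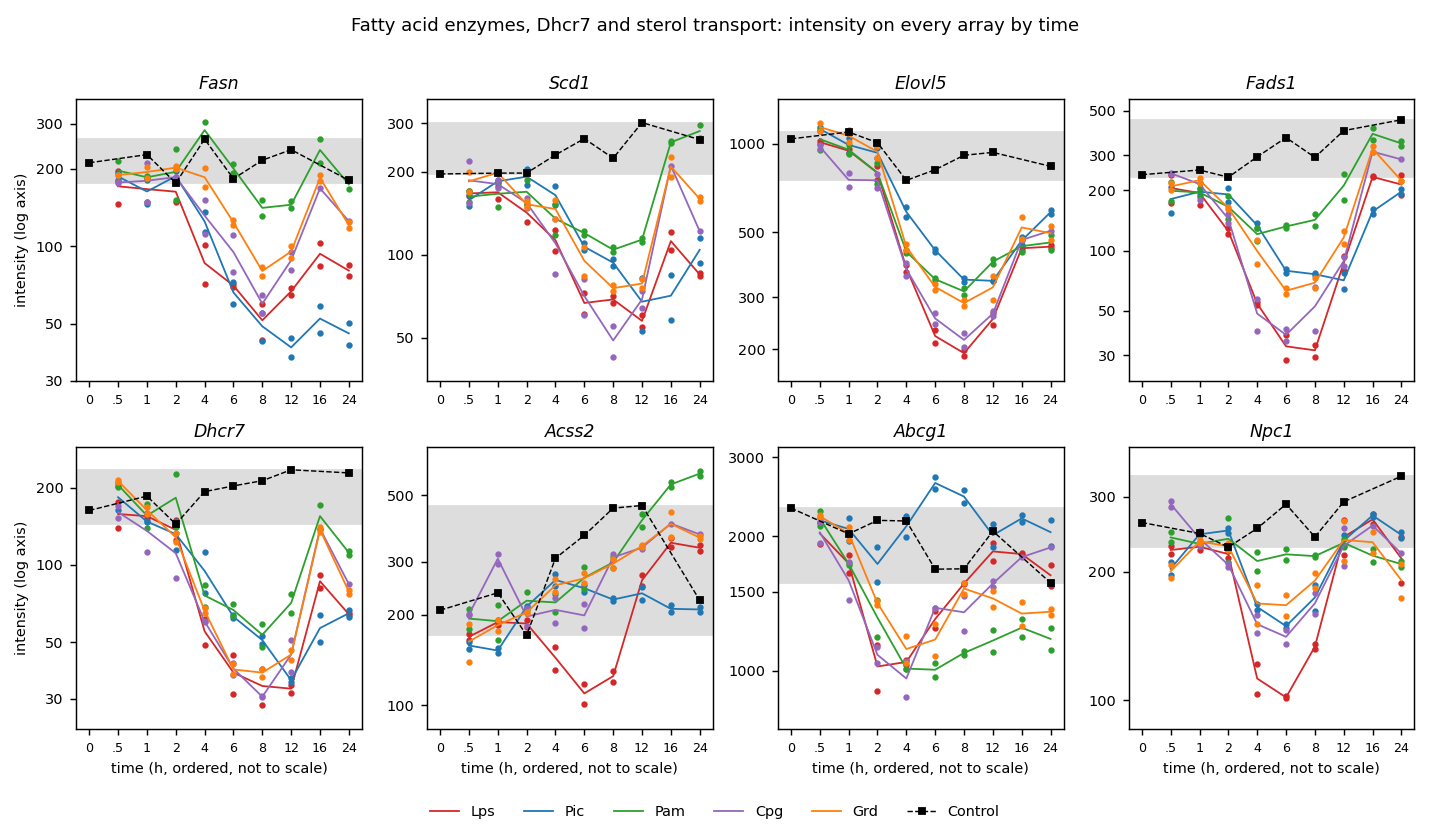
Intensity (log axis) of 4 fatty acid enzymes, Dhcr7, Acss2, Abcg1 and Npc1 by time (h, ordered, not to scale), drawn as points for arrays, lines for the means of each ligand, black squares for Control and a grey band for the Control range. Fads1, Elovl5 and Dhcr7 lie below the band in all 5 ligands at 4 to 8 h, and Abcg1 in Pic stands above the band at 6 and 8 h.

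Counted by single times, the share of members whose arrays all lay below all 8 Control arrays was largest at 8 h and later. It was 24 of 29 members (82.8%) for Lps at 8 h, when 33.9% of all genes did so. For Pic it was 24 of 29 at 8, 16 and 24 h, against 33.9%, 25.8% and 22% of all genes. Pam never passed 13 of 29 (44.8%), at 8 h (24.3% of all genes) and at 12 h (21%). At 4 h, 10 members in Pam were above all Control arrays (34.5%, against 17.1% of all genes): Idi1, Fdft1, Sqle, Cyp51, Msmo1, Hsd17b7, Sc5d, Stard4, Srebf2 and Fasn.

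The count dipped at 16 h in some ligands. In Grd it was 23 members at 12 h (24.2% of all genes), 14 at 16 h (19%) and 24 at 24 h (20.7%). In Cpg it was 22 at 12 h (27.9%), 15 at 16 h (24.1%) and 23 at 24 h (23.6%), with 1 array at each of the last 2 times. Pic had 23 at 12 h (31.6%) and 24 at both later times. Leaving 16 h out of the late window gave 11 called members for Cpg and 8 for Grd. Control had no array at 16 h, and the dip's relation to place on the plate was not tested.

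**Figure D4:**
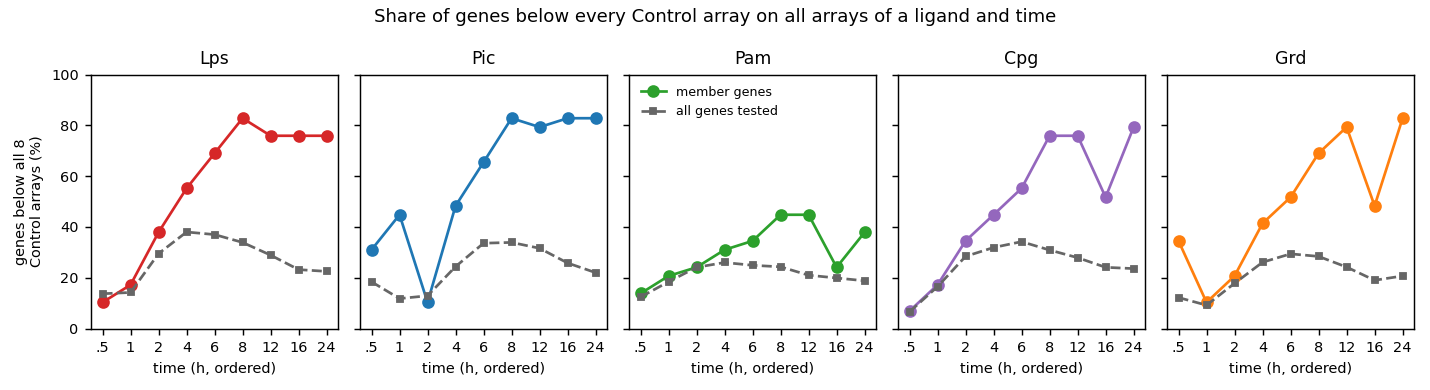
Percent of the 29 members (coloured lines) and of all genes tested (grey dashed lines) whose arrays all lay below the 8 Control arrays, by time (h) for each ligand. Pic holds 82.8% at 8, 16 and 24 h, Pam stays at or below 44.8%, and Grd dips to 48.3% at 16 h.

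The second comparison set the ligands against each other at matched times. Over the 10 pairs, 23 member differences were called at 4-8 h and 42 at 12-24 h. Depending on the pair, 0.417% to 8.24% of all genes were called in either direction at 4-8 h and 0.237% to 8.47% at 12-24 h. At 12-24 h, 15 members were lower in Pic than in Pam (3.87% of all genes were) and 11 lower in Lps than in Pam (0.920%). Pic was also lower than Grd for 8 members (3.31%) and lower than Cpg for 6 (2.47%). Lps was lower than Cpg for 1 member (0.256%) and lower than Grd for 1 (0.522%), which was Sqle both times.

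Sqle differed by -2.27 between Pic and Pam at 12-24 h (SE 0.09, adjusted p = 6.8e-30) and by -1.80 between Lps and Pam (SE 0.09, adjusted p = 9.3e-25). Fdps differed by -2.25 between Pic and Pam (SE 0.10, adjusted p = 2e-27), and Stard4 by -1.97 (SE 0.09). Fasn differed by -1.96 (SE 0.11) and Cyp51 by -1.86 (SE 0.09) in the same pair. Between Lps and Pic at 12-24 h limma called 0 members in either direction. It called 3.44% of all genes, so 0 of 29 members is near that share. An unadjusted p under 0.05 was reached by 17 members (55.1% of all genes). The members' median there was 0.16, and the widest difference was 0.78, for Fasn. Limma also called 0 members at 12-24 h for Pam against Cpg, Pam against Grd and Cpg against Grd. It called 1.17%, 0.645% and 0.237% of all genes in these pairs, so 0 of 29 members is near those shares too. There, 24, 25 and 6 members had an unadjusted p under 0.05 (32.3%, 31.4% and 16.7% of all genes). The medians of these pairs were 0.47, 0.41 and -0.08.

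At 4-8 h, 7 members were lower in Lps than in Pam (1.95%) and 8 lower in Pic than in Pam (2.96%). Fads1 separated the other ligands: it was lower in Lps than in Pic (-1.26, SE 0.12), where 1.79% of all genes were called lower. It was higher in Pic than in Cpg (1.03, SE 0.12, against 1.70% of all genes called higher) and higher in Pam than in Cpg (1.52, SE 0.12, against 0.360%), as was Fasn (1.14, SE 0.11). Hsd17b7 and Sqle were lower in Pic than in Grd, with differences of -1.37 (SE 0.12) and -1.20 (SE 0.09), in a pair with 1.81% of all genes called lower. Acss2 was lower in Lps than in Grd (-1.10, SE 0.13, against 0.607%).

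**Figure D5:**
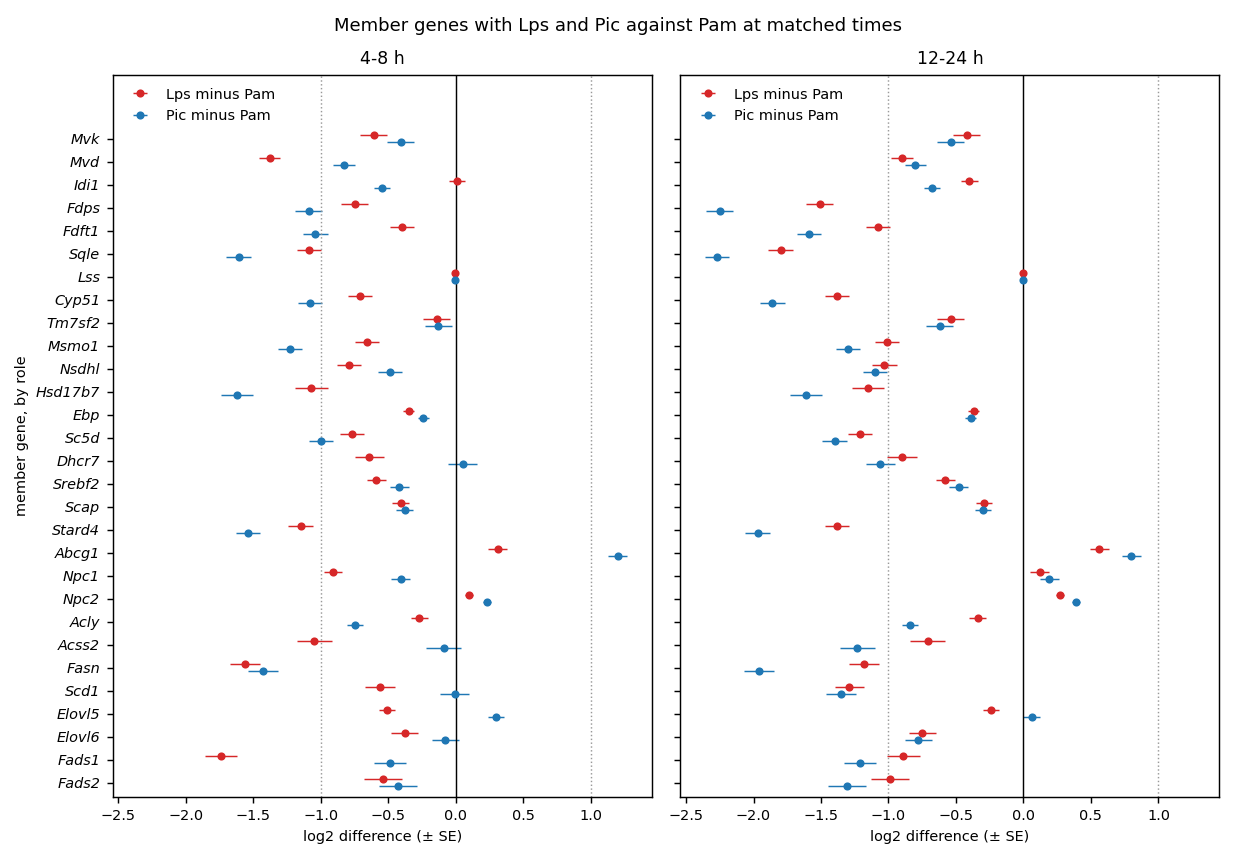
Log2 difference (with SE bars) of each measured member for Lps minus Pam and Pic minus Pam, at 4-8 h and at 12-24 h. At 12-24 h Sqle stands at -2.27 for Pic and -1.80 for Lps, and Abcg1 for Pic stands at 1.20 at 4-8 h.

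The third comparison followed each ligand between windows. Between 0.5-2 h and 4-8 h, 22 member changes were called, all lower, and Dhcr7 and Elovl5 were among them in all 5 ligands. The background of lower calls was 5.05% of all genes in Lps, 1.87% in Pic, 2.34% in Pam, 3.08% in Cpg and 2.91% in Grd. Between 4-8 h and 12-24 h, 19 changes were called. Lps had 6 lower (2.94%) and 3 higher (3.88%), Pic 4 lower (1.38%), and Pam, Cpg and Grd 1 lower (1.04%, 2.12% and 1.18%) and 1 higher each (1.26%, 1.99% and 1.45%). Cyp51 fell by 1.56 in Lps and 1.65 in Pic, and Fdps by 1.15 and 1.56. Hsd17b7 fell in all 5 ligands, by 1.35 in Lps, 1.26 in Pic, 1.27 in Pam, 1.17 in Cpg and 1.46 in Grd. It was also lower late in Control, at 123.4, 100.6 and 124.3 at 4, 6 and 8 h, and 74.2 and 62.3 at 12 and 24 h. These changes between windows do not take the Control course into account.

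In unstimulated cells, a line fitted over log2(hours + 1) called 1 member, Fads2, the delta-6 desaturase, which was higher at 24 h than at 0 h by 1.32 (SE 0.27, adjusted p = 0.039), where 1.28% of all genes were called higher. Hsd17b7 had -1.16 (SE 0.33, adjusted p = 0.062). These slopes rest on 8 arrays, and the Fads2 call was lost in several alternative fits.

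The members' courses were also set beside the mean course of 14 measured cholesterol enzymes over the 46 group means, as a description, since the members share the arrays. An enzyme that was itself among the 14 was set beside the other 13. Pearson's r was 0.96 for Fdft1, 0.95 for Sqle and Nsdhl, 0.94 for Cyp51 and 0.92 for Msmo1. Outside the enzyme list it was 0.91 for Stard4, 0.89 for Srebf2 and 0.87 for Fasn. It was low for Fads1 (0.17), Npc1 (-0.05) and Acss2 (-0.13), and negative for Abcg1 (-0.42) and Npc2 (-0.61).

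Other genes around the pathway, listed with earlier results of these data known, showed mixed directions. Of 21 measured further SREBP pathway genes, 2 were lower and 1 higher in Lps at 12-24 h, and 4 lower and 1 higher in Pic, with medians of -0.12 and -0.23. Over all genes, 4.42% were called lower and 4.70% higher in Lps at these times, and 4.00% and 4.53% in Pic, so the higher counts are near the background. Lpin1, a phosphatidate phosphatase of triglyceride synthesis, ranged from 20 to 29.0 in Lps at 4-8 h against 107.7 to 256.5 in Control (-2.65, SE 0.12, adjusted p = 1.2e-26). Lbr, a sterol reductase of the nuclear envelope, ranged from 29.5 to 38.6 in Pic at 12-24 h against 126.4 to 221.7 in Control (-2.12, SE 0.10, adjusted p = 3.9e-25). Me1, the malic enzyme that supplies NADPH, was higher: it ranged from 124.5 to 174.7 in Pam at 12-24 h against 21.5 to 40.5 in Control (2.18, SE 0.10, adjusted p = 1.9e-26).

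Of 10 measured LXR pathway genes at 12-24 h, 2 were higher and 2 lower in Lps, 1 higher and 3 lower in Pic, 0 higher and 2 lower in Pam, and 2 higher and 1 lower in Cpg and in Grd. The share of all genes called higher then was 4.70% in Lps, 4.53% in Pic, 3.42% in Pam, 3.86% in Cpg and 3.84% in Grd, and the lower shares are those given for the members. Nr1h3, which encodes LXR alpha, ranged from 34.9 to 111.5 in Lps at 12-24 h against 20 to 25.9 in Control (1.56, SE 0.08, adjusted p = 5e-24). Its late difference was 1.09 in Pic, 1.63 in Cpg and 1.37 in Grd, called in each, and 0.61 in Pam, under the limit. Among 4 measured oxysterol enzymes, Ch25h, which makes 25-hydroxycholesterol, ranged at 4-8 h from 1904.9 to 3334.5 in Lps, 1215.7 to 2043.0 in Pic, 270.7 to 641.3 in Pam, 975.1 to 2179.7 in Cpg and 888.0 to 2249.1 in Grd, against 28.4 to 54.1 in Control. Its differences were 6.01 in Lps, 5.34 in Pic, 3.58 in Pam, 5.26 in Cpg and 5.28 in Grd (SE 0.12 each). Cyp27a1 and Hsd3b7, of the same list, went the other way in some ligands at 4-8 h. Cyp27a1 lay below all Control arrays in Pam, where every array was at the floor, in Cpg and in Grd. In Lps and Pic it overlapped Control (43.5 to 272.3). Hsd3b7 lay below all Control arrays in every ligand but Pam, at 89.1 to 153.5 in Lps against 220.6 to 327.7 in Control.

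Of 14 measured genes of lipid storage and uptake, 1 was higher in Lps, 1 in Pic, 2 in Pam, 1 in Cpg and 2 in Grd at 12-24 h, and 1 was lower in Pic. With 14 genes, counts of 1 are near the shares of all genes just given. Dgat2, which makes triglyceride, ranged from 64.2 to 478.4 in Pam at 12-24 h against 25.8 to 31.9 in Control (2.89, SE 0.09, adjusted p = 2.6e-34). In Pic its late difference was 0.28, under the limit. Of 10 measured genes of fatty acid oxidation, 2 were lower in Lps at 4-8 h (8.22% of all genes), 1 in Pic (2.79%), 3 in Pam (4.00%), 3 in Cpg (5.53%) and 3 in Grd (3.92%). Ppargc1b, a coactivator of oxidative genes, had -3.37 in Cpg, at 26.7 to 93.6 against 263.0 to 604.7 in Control.

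In these bulk cultures fewer cells of a type and less RNA per cell cannot be told apart. The summed intensity of 10 dendritic cell markers ranged from 23333 to 28840 in Lps, 25821 to 28446 in Pic, 22117 to 30680 in Pam, 22880 to 29877 in Cpg and 19760 to 29554 in Grd, against 27386 to 29916 in Control. The sum of 7 of 8 macrophage markers ranged from 16472 to 22481 in Lps, 17748 to 20558 in Pic, 16109 to 23058 in Pam, 16702 to 22400 in Cpg and 16071 to 24448 in Grd, against 19284 to 23359 in Control. Single macrophage markers varied more widely than the sum: over all arrays Mrc1 ranged from 20 to 2040.2 and Adgre1 from 459.9 to 6822.3, with Control medians of 1530 and 843.5. Some dendritic cell markers also varied more widely than their sum. Itgax ranged from 1116.5 to 4877.8, Batf3 from 148.8 to 649.1 and Irf8 from 694.2 to 2400.1. Their Control medians were 3702, 483.6 and 916.2. The brighter Cd74 ranged from 5594.2 to 8438.6, with a Control median of 7931. The sum of 6 of 8 neutrophil markers ranged from 1176 to 9391 in Lps, 3765 to 10893 in Pic, 2256 to 8585 in Pam, 1557 to 8679 in Cpg and 2132 to 8262 in Grd, against 4974 to 7885 in Control. Cd79b and Cd3e, the lymphocyte markers measured, were at the floor on all Control arrays. The part of these cell types in the members' differences was not tested.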

How the data were processed

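RNA of 96 samples of mouse primary bone marrow dendritic cells was measured on one-colour Affymetrix arrays, per the labels' protocols. The deposited intensity values, for 18858 probe sets, are on a linear scale with a floor of 20, and the submitters' processing notes name RMA. Its version, and the step that set the floor, are not given in the sources used here. No further normalization was applied.

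GEO's platform annotation named the probe sets (1 symbol for 15044, several for 257, none for 3557), and 15024 of the single-symbol sets matched a RefSeq gene. A filter removed 4409 probe sets that never left the floor, and the brightest probe set on average stood for each gene, which left 10543 genes for testing: 7741 named and 2802 unnamed probe sets. One limma 3.58.1 model in R 4.3.3 on log2(value + 1) fitted 45 ligand and time means and 1 Control mean, moderated by empirical Bayes on 50 residual degrees of freedom. Windows, ligand pairs and changes between windows were contrasts of these means. The fit was tested on simulated data. The members, lists and windows were chosen with earlier results of these data known. Genes chosen for naming were the measured members and, from each other list, the up to 4 with the largest called difference. Not all of the latter are described above. Left out were Rdh11 and Hilpda, which were higher in some windows. Also left out were Scarb1, Pltp, Apoe, Fabp4, Plin3, Acadm and Cpt1a, which were lower in some windows.

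Alternatives were array centring, log2(value + 16), no filter, the mean over probe sets, a Control trend, Control arrays of the same times, leaving out arrays, and the replicate number as a block. The replicate numbers were not taken to pair samples: deviations of same-numbered arrays of the same time and different ligands had a median correlation of -0.00 over 82 pairs.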

Additional observations from a re-analysis of the deposited data

Results flagged for a closer look

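Hsd17b7 changed sides of the pooled Control mean between windows. In Lps it had a log2 difference from Control of -1.18 at 12-24 h and 0.16 at 4-8 h, and the change between windows was -1.35 (SE 0.12, adjusted p = 2.5e-14). In Pam the values were -0.03 and 1.23, and the change was -1.27 (SE 0.12, adjusted p = 6.5e-13). These signs are set by all 8 Control arrays together: the 6 late Pam arrays, at 87.1 to 135.2, lay above the Control arrays of 12 and 24 h, at 74.2 and 62.3. Between Pic and Pam at 4-8 h it had -0.38 and 1.23, a difference of -1.62 (SE 0.12, adjusted p = 2.5e-17).

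Acss2 in Lps had 0.12 at 12-24 h and -1.19 at 4-8 h, a change of 1.31 (SE 0.13, adjusted p = 5.9e-13). Elovl5 had values of opposite sign at 4-8 h and 0.5-2 h in Pic (-1.05 and 0.14), Pam (-1.35 and 0.01) and Grd (-1.40 and 0.18). The changes were -1.19, -1.35 and -1.59, each with an SE of 0.06.

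At 4-8 h Sqle had -1.04 in Lps, -1.56 in Pic and 0.05 in Pam. The difference from Pam was -1.09 for Lps (SE 0.09, adjusted p = 2.9e-16) and -1.61 for Pic (SE 0.09, adjusted p = 2.8e-23). Msmo1 had -1.12 in Pic and 0.11 in Pam, a difference of -1.23 (SE 0.09, adjusted p = 2.4e-17).

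One Control array stood apart for Lss: at 8 h it read 20.9, with a gap of 0.55 of the range to the nearest other array, above Dixon's critical value for 8 samples. This value is just over the floor of 20. Of 29 members tested in Control this was the 1 that stood apart, and chance alone marks about 1 in 20 groups.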

How the results depend on the processing

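Over 137 alternatives of 20 counts of members called, 123 stayed within 1.5 times the count reported and 14 moved by more. The 123 include the 0.5-2 h windows, where the count was 0 in every setting. Against Control arrays of the same times, 13 members were called in Pic at 4-8 h, 2 in Pam, 13 in Cpg and 11 in Grd at 12-24 h, in place of 8, 1, 7 and 5. At 12-24 h this setting also left out the 16 h ligand arrays. Without 16 h, an alternative chosen after seeing the data, the late counts were 16 in Lps, 2 in Pam, 11 in Cpg and 8 in Grd. With the mean over probe sets, 4 were called in Cpg and 3 in Grd at 4-8 h, in place of 7 and 5, and with log2(value + 16) 3 in Grd at 12-24 h, in place of 5. The Control slope called 1 member, but 3 after centring (2 higher, 1 lower) and 0 with log2(value + 16), without the filter or with the mean over probe sets. Leaving out 1 array gave 6 to 11 members for Cpg at 12-24 h, with 11 without its 16 h array, 4 to 5 for Grd and 16 to 18 for Pic at 12-24 h, and left the counts of 15 for Lps and 1 for Pam as they were. For the Control slope it gave 0 to 2, with 0 without the array at 1, 2, 4, 8, 12 or 24 h, 1 without that at 6 h and 2 without that at 0 h. The fit with the replicate number as a block gave the same counts: 12, 8, 5, 7 and 5 members at 4-8 h for Lps, Pic, Pam, Cpg and Grd, 15, 17, 1, 7 and 5 at 12-24 h, and 23 and 42 calls between ligands. This block cannot change the log2 differences of groups that hold both replicate numbers. Only the Cpg groups of 16 and 24 h could shift, so the equal counts are no test of stability. The plate column as a block, also chosen after seeing the data, gave 7 and 7 members for Cpg at 4-8 and 12-24 h. Each of the 47 genes chosen for naming was checked in a single window. This was the window of its largest called difference, or of its largest difference if never called. Over 1014 alternatives, 11 lost the call, 9 gained it and 0 reversed. Calls near the size limit in other windows, such as Cyp51 in Cpg or Elovl5 in Pic at 12-24 h, lie outside this count. Signal over the floor limits what can be said of Elovl6, Fads2, Mvk and Lss.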
